A study of Homo sapiens with 6 samples.

Results

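The TNF superfamily ligands are small trimeric cytokines, made as membrane proteins and in part released from the cell surface, that act on receptors of the TNF receptor superfamily. This account covers 10 of their genes, taken by symbol from the 60591 genes counted: TNF, LTA, LTB, TNFSF9, TNFSF10, TNFSF12, TNFSF13, TNFSF14, TNFSF15 and TNFSF18. Their expression was compared between KYSE150 cells given TPA and KYSE150 cells given the solvent DMSO, with 3 RNA-seq libraries in each group. KYSE150 is an established human line from an oesophageal squamous cell carcinoma. The TPA cells received 10 ng/ml TPA for 24 h after a night without serum. The same protocol text, with its overnight starvation, stands beside the DMSO libraries, and it states no dose or time of DMSO. Every library is from this 1 line, and the labels do not say whether libraries of a group had a culture each. The p-values therefore describe spread among these libraries, which may be technical.

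Most of these ligands are known from leukocytes, where they drive inflammation, lymphoid organ formation and the survival or death of other cells, and epithelial cells make some of them too. Engaged receptors recruit TRAF adaptors and activate NF-kB and MAP kinases, and the receptors with a death domain can also start caspase-dependent death. TPA is a phorbol ester that activates protein kinase C in place of diacylglycerol, and this kinase in turn feeds the transcription factors NF-kB and AP-1.

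Library totals ran from 27702329 to 33965547 counts, so that a gene at 0 counts could still be at 0.0915 to 0.109 CPM, depending on the library (a limit of 3 counts; CPM, the unit used for levels, is a count scaled to the TMM-adjusted library size). These limits cover counting error only. The libraries numbered 1 stood apart from those numbered 2 and 3. Across genes, log2 CPM of TPA 1 correlated at 0.97 with DMSO 1, against 0.93 with TPA 2 and 0.94 with TPA 3. Where adding the library number as a block changed the call of a ligand gene or a named gene, that value is given too. All 9 squamous markers had counts, although SOX2 had 0 in TPA 1 and was not tested. Their levels were not steady. In TPA, TP63 (log2 fold change -1.21), DSG3 (-1.29) and KRT5 (-1.89) were lower and KRT6A (3.70) was higher. None passed with the group alone (adjusted p = 0.0752, 0.149, 0.218 and 0.0898, edgeR). All of them did with the block (0.0144, 0.0186, 0.00151 and 0.00153), which called 6.52% of all genes lower and 4.58% higher. The other tested squamous markers passed in neither fit. Of 14 leukocyte markers CD3D and MS4A1 were at 0 in all libraries and PTPRC, the pan-leukocyte gene CD45, had 5, 3 and 0 counts in TPA and 1, 1 and 4 in DMSO. The summed leukocyte list, mostly CSF1R and CD3E, lay at 12.9 to 14.3 CPM in TPA and 11.2 to 19.7 CPM in DMSO. Within it ITGAM, a myeloid integrin gene, was higher in every TPA library, with 23, 51 and 55 counts in TPA and 14, 16 and 12 in DMSO (log2 fold change 1.69 ± 0.41; adjusted p = 0.0759, edgeR, and 0.0371 with the block). CD3E, a T cell receptor subunit gene, was lower in every TPA library, with 35, 36 and 32 counts in TPA and 67, 125 and 88 in DMSO (-1.33 ± 0.32; adjusted p = 0.0747, edgeR, and 0.033 with the block). CD79A, with too few counts to be tested, also separated, with 8, 6 and 9 counts in TPA and 1, 5 and 4 in DMSO. Over all tested genes, 14.3% were higher and 15.2% lower in every TPA library, so such separation is common here. The part of these markers in the ligand results was not tested.

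TNF and LTA were the ligand genes that passed the test, and both were higher in TPA. Of the 9 ligand genes with enough counts to be tested, 2 were higher, 0 were lower and 7 did not pass at an adjusted p under 0.05 (quasi-likelihood test of edgeR, Benjamini-Hochberg adjusted over 21825 genes). The same test called 1.26% of all genes, 0.861% higher and 0.394% lower. Without adjustment 6 ligand genes were higher and 1 was lower at p under 0.05, against 22.1% of all genes in either direction. DESeq2 called 4 higher and 1 lower, against 7.8% and 4.19% of all genes, and limma-voom called 2 and 0, against 1.13% and 0.596%. Leaving out TPA 1 gave 6 higher and 1 lower, in a fit that called 24.6% of all genes higher and 27.8% lower, so these counts say little about the ligand genes. Leaving out any other library gave 0 and 0, with at most 101 higher and 38 lower over all genes. With the replicate block 4 were higher (TNF, LTA, TNFSF14 and TNFSF15) and 1 was lower (TNFSF10), against 4.58% and 6.52% of all genes. TNF and LTA entered the test through the TPA libraries alone, since no DMSO library reached its count minimum, so they had to differ and their counts support nothing beyond their own values. LTB and TNFSF14 reached that minimum in 3 TPA libraries and 1 DMSO library, TNFSF18 in 3 and 2, and TNFSF10 in 1 and 3. With 3 libraries required, these genes also needed the group where their mean was higher. In bulk RNA, more cells with a transcript and more transcript per cell cannot be told apart.

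**Figure D1:**
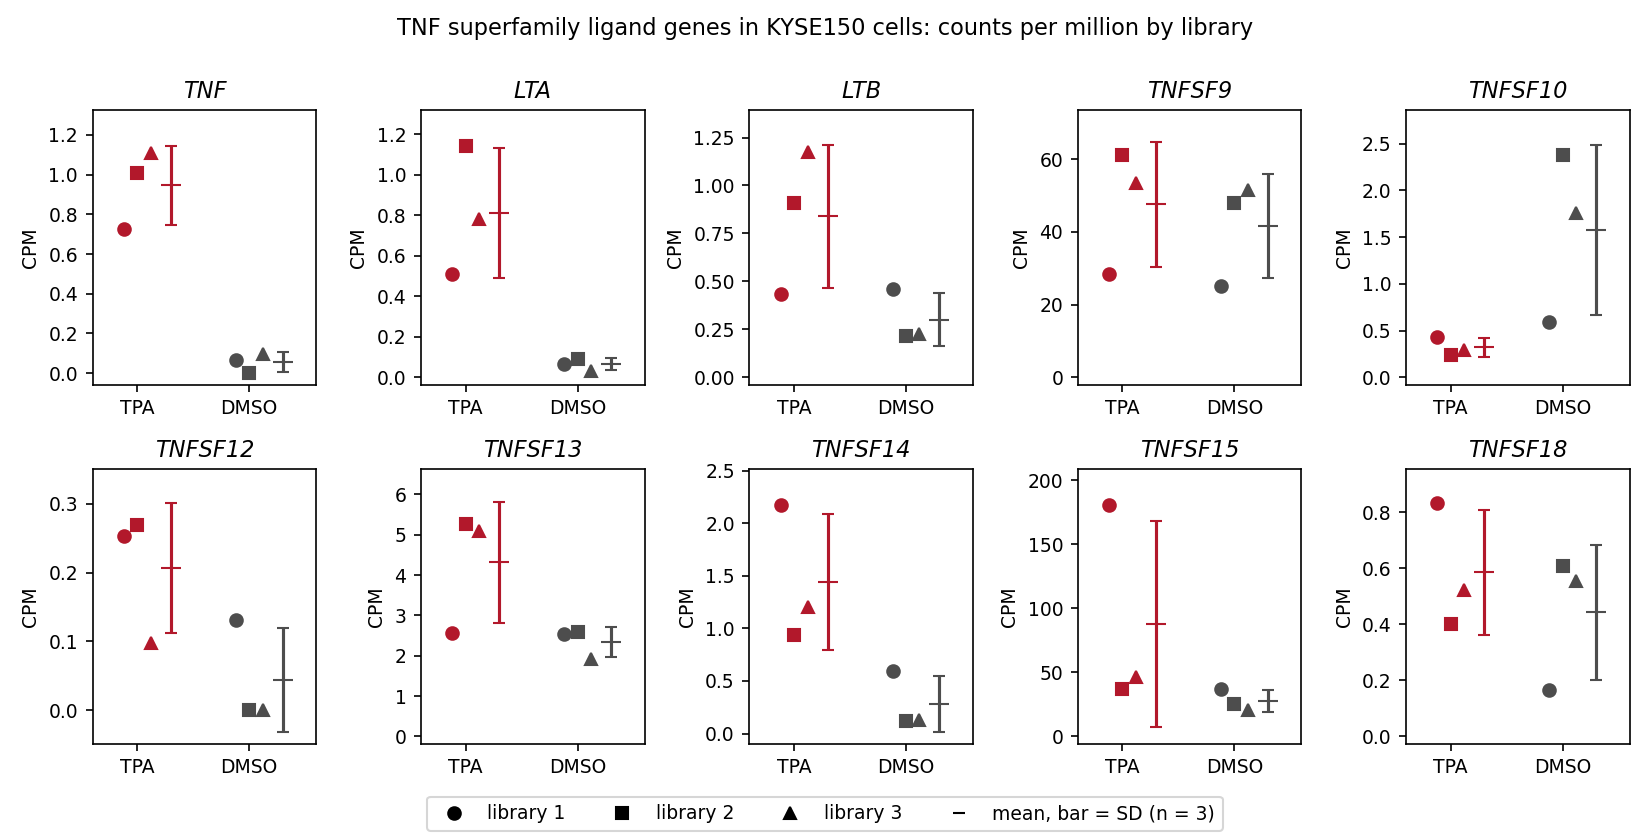
CPM (linear axes) of the 10 ligand genes in each library, TPA left of DMSO; symbols give the library number, and the horizontal mark with its bar is the mean ± SD of 3 libraries. TNF lay between 0.725 and 1.11 CPM in TPA and at or under 0.0977 CPM in DMSO, and TNFSF15 stood highest in TPA 1.

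Promoter windows were read for 9 of the 10 genes from RefSeq (GRCh38.p14), each 300 bases long, with 250 before and 50 from the start. TNFSF12 had none in the table used. The windows were searched on both strands for letters known to be bound by factors downstream of protein kinase C or interferon. The TATA box, a core promoter pattern and not one of these, was searched as well. The patterns were GGNNTTTCC and GGGNNTTCC for NF-kB, TGANTCA for AP-1, TTCNNTTTC for the interferon response element, TTCNNNGAA for STAT dimers (GAS) and TATAAA for the TATA box. Among 34943 windows of all genes, 6.25%, 6.57%, 7.72%, 8.1%, 7.66% and 11.6% held them, in that order. The 2 NF-kB patterns can overlap, and did in 1 window of TNFSF13. A match describes letters and is not evidence of binding, and a window without one says nothing about the factor. In the windows printed below, capitals mark every match.

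TNF and its closest relatives LTA and LTB are neighbours in the major histocompatibility complex. TNF encodes the founding cytokine of the family, which signals through TNFRSF1A and TNFRSF1B (chromosome 6, 31575567 to 31578336, GENCODE 29 on GRCh38). LTA encodes lymphotoxin alpha, a secreted ligand of the same receptors (chromosome 6, 31572054 to 31574324). LTB encodes the membrane partner of LTA in the heterotrimer that binds LTBR (chromosome 6, 31580525 to 31582522). The gap between LTA and TNF is 1242 bases and that between TNF and LTB is 2188 bases.

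TNF had 20, 30 and 34 counts in TPA libraries 1, 2 and 3, against 2, 0 and 3 in DMSO libraries 1, 2 and 3. The groups were far apart, with the lowest TPA library well above the highest DMSO library, and the level was low throughout. TNF averaged 0.947 ± 0.199 CPM in TPA and 0.0545 ± 0.0498 CPM in DMSO (SD, n = 3 each). Its log2 fold change was 4.04 ± 0.69 (SE; adjusted p = 0.0484, edgeR), and over summed counts the ratio was 17.9 (exact 95% interval 7.38 to 56.6, counting error only). LTA followed the same pattern, with 14, 34 and 24 counts in TPA against 2, 3 and 1 in DMSO. Its means were 0.811 ± 0.319 CPM in TPA and 0.0633 ± 0.0296 CPM in DMSO (SD, n = 3 each), with a fitted log2 fold change of 3.59 ± 0.57 (adjusted p = 0.0411, edgeR). Both calls sat near the threshold. Leaving out TPA 2, TPA 3 or any DMSO library ended them, with adjusted p from 0.0948 to 0.276 for TNF and from 0.0841 to 0.288 for LTA (edgeR), while the log2 fold change stayed between 3.48 and 4.73 for TNF over all libraries left out in turn, with 4.73 without DMSO 3, and between 3.28 and 3.95 for LTA. Scaling by library size alone gave TNF an adjusted p of 0.0516 and LTA 0.0437 (edgeR). With the replicate block adjusted p was 0.00817 for TNF and 0.0083 for LTA (edgeR).

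LTB differed from its neighbours in that its groups overlapped. It had 12, 27 and 36 counts in TPA and 14, 7 and 7 in DMSO, so that TPA 1 lay below DMSO 1 while TPA 2 and TPA 3 lay above all DMSO libraries. The log2 fold change was 1.48 ± 0.52 and did not pass (adjusted p = 0.162, edgeR, and 0.113 with the block). Its change was not tested against those of TNF and LTA.

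The windows of the genes that passed are printed to show what lies before their starts. That of TNF (chr6:31575315-31575614, plus strand; GRCh38.p14) held a TATA box and no other searched pattern. The LTA window (chr6:31572039-31572338, plus strand) held an NF-kB pattern, a GAS pattern and a TATA box, and belongs to the more downstream of 2 overlapping RefSeq starts. The other LTA window held only GAS patterns, and both LTB windows held an NF-kB and a GAS pattern.
TNF: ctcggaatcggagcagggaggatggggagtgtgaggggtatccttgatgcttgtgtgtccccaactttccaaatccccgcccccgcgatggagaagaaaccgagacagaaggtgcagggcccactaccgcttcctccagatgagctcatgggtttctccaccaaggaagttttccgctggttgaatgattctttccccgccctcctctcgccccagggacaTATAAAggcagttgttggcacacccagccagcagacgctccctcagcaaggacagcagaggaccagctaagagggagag
LTA: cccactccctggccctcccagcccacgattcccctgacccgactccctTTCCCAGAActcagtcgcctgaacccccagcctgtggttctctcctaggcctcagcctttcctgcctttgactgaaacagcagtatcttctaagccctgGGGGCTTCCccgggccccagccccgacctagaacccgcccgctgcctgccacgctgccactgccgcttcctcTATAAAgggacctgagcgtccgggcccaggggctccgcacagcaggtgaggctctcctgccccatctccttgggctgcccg

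TNFSF14 encodes LIGHT, a ligand of LTBR and TNFRSF14 that costimulates T cells (chromosome 19, 6661253 to 6670588). It had 60, 28 and 37 counts in TPA libraries 1, 2 and 3, against 18, 4 and 4 in DMSO. The groups did not overlap, and in each group library 1 was the highest. TNFSF14 averaged 1.44 ± 0.650 CPM in TPA and 0.282 ± 0.269 CPM in DMSO (SD, n = 3 each), with a log2 fold change of 2.34 ± 0.67. It did not pass with the group alone (adjusted p = 0.105, edgeR) and did with the block (log2 fold change 2.52, adjusted p = 0.0106). The log2 ratio of CPM + 0.5 was 1.29, 1.21 and 1.44 in pairs 1, 2 and 3 (libraries that carry the same number). Without DMSO 1 the log2 fold change was 3.48 (adjusted p = 0.0683, edgeR). The window of TNFSF14 (chr19:6670109-6670408, minus strand; GRCh38.p14) held an AP-1 pattern and an interferon response element, and is printed because this gene changed with the block.
TNFSF14: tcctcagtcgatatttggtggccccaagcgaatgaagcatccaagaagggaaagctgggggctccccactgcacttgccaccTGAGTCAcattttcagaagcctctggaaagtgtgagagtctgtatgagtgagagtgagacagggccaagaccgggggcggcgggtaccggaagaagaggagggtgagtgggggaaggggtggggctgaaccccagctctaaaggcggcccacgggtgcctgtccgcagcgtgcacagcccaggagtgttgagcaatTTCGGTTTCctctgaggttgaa

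TNFSF15, TNFSF9 and TNFSF18 encode ligands known for costimulating T cells. TNFSF15, the ligand of the death-domain receptor TNFRSF25, is also made in a form that inhibits endothelial growth (chromosome 9, 114784635 to 114806126), and counts per gene do not separate the forms. TNFSF15 had 4989, 1109 and 1415 counts in TPA libraries 1, 2 and 3, against 1120, 821 and 641 in DMSO. TPA 1 was far above every other library, at 181 CPM. The groups did not overlap, but only just, since TPA 2 was at 37.3 CPM and DMSO 1 at 36.9 CPM. Means were 88.1 ± 80.5 CPM in TPA and 27.6 ± 8.29 CPM in DMSO (SD, n = 3 each). The log2 fold change was 1.67 ± 0.61 (adjusted p = 0.172, edgeR), and with the block it passed (1.33, adjusted p = 0.0288). It also passed with a correction for transcript GC content and no block (1.88, adjusted p = 0.032, edgeR), which called 749 of 21023 genes higher. The value with the group alone rested on TPA 1 for its size. Without that library the log2 fold change was 0.71 (adjusted p = 0.0407, edgeR). That fit called 24.6% of all genes higher and 27.8% lower, so passing there says little about TNFSF15. The pairs gave 2.28, 0.56 and 1.13 as log2 ratios of CPM + 0.5.

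The RefSeq window of TNFSF15 (chr9:114792481-114792780, minus strand; GRCh38.p14) belongs to a start that lies 13596 bases inside the gene as GENCODE 29 draws it, so it is that of an internal start and not of the whole gene. It held 1 AP-1 pattern and is printed because this gene passed with the block.
TNFSF15: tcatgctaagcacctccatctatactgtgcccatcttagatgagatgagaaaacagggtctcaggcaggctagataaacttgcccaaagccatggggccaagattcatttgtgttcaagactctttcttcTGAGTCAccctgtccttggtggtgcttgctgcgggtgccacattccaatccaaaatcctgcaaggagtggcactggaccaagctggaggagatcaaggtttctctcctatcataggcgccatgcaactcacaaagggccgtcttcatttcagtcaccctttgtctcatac

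TNFSF9, the ligand of TNFRSF9 (chromosome 19, 6530999 to 6535928), had the highest level per length of the 10 ligand genes and did not pass. It had 780, 1818 and 1637 counts in TPA against 763, 1573 and 1578 in DMSO. Library 1 was the lowest in both groups, and the groups overlapped. The log2 fold change was 0.20 ± 0.38 with a 95% interval from -0.69 to 1.08 (adjusted p = 0.786, edgeR), and its sign turned with library-size scaling (-0.07) and with a correction for transcript GC content (-0.23). TNFSF18, the ligand of TNFRSF18 (chromosome 1, 173039960 to 173050963), had 23, 12 and 16 counts in TPA against 5, 20 and 17 in DMSO. Its groups overlapped, with TPA 1 the highest and DMSO 1 the lowest library. The log2 fold change was 0.39 ± 0.56 with a 95% interval from -0.90 to 1.69 (adjusted p = 0.704, edgeR).

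TNFSF10 was the tested ligand gene with a negative fold change. It encodes TRAIL, which triggers apoptosis through TNFRSF10A and TNFRSF10B and is known as an interferon-inducible gene (chromosome 3, 172505508 to 172523507). TNFSF10 had 12, 7 and 9 counts in TPA libraries 1, 2 and 3, against 18, 78 and 54 in DMSO. The groups did not overlap, and DMSO 1 was far below the other DMSO libraries and close to TPA 1. Means were 0.321 ± 0.103 CPM in TPA and 1.58 ± 0.908 CPM in DMSO (SD, n = 3 each), with a fitted log2 fold change of -2.29 ± 0.58 that did not pass (adjusted p = 0.0829, edgeR). It passed with the block (-2.14, adjusted p = 0.0357) but not with the block and the GC correction (-1.67, adjusted p = 0.0514). The pairs gave log2 ratios of CPM + 0.5 of -0.22, -1.97 and -1.51, so the difference lay mostly in pairs 2 and 3. The window of TNFSF10 (chr3:172523381-172523680, minus strand; GRCh38.p14) held 2 interferon response elements and a TATA box, and is shown beside the interferon-stimulated genes described below. The interferon pattern does not set TNFSF10 apart, since 3 of the 9 genes with a window held it. The others were TNFSF9, which did not pass, and TNFSF14, whose fold change was positive.
TNFSF10: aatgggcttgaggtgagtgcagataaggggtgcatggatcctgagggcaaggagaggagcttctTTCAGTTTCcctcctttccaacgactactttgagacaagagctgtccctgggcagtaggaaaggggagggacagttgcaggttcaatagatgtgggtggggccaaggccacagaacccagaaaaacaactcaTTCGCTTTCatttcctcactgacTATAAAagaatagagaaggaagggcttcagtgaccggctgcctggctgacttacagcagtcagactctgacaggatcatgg

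TNFSF12 and TNFSF13 lie head to tail on chromosome 17, with 401 bases between them. TNFSF12 encodes TWEAK, the ligand of TNFRSF12A (chromosome 17, 7548891 to 7557890), and TNFSF13 encodes APRIL, a survival factor of plasma cells (chromosome 17, 7558292 to 7561608). A readthrough gene, TNFSF12-TNFSF13, covers 29.4% of the exon bases of TNFSF12 and 55.5% of those of TNFSF13, and was listed at 0 in every library. How reads in those shared bases were counted is not given in the sources used here, so both levels are uncertain. AC016876.3, an antisense gene with 900 counts over the 6 libraries, covers a further 3.8% of TNFSF12. TNFSF12 was left out of the test for low counts, with 7, 8 and 3 counts in TPA against 4, 0 and 0 in DMSO, a ratio of 4.80 over summed counts (exact 95% interval 1.58 to 19.5, counting error only). Its groups overlapped at TPA 3 and DMSO 1. TNFSF13 had 71, 157 and 156 counts in TPA against 77, 85 and 59 in DMSO. TPA 2 and TPA 3 were above all DMSO libraries and TPA 1 was at their level, and the log2 fold change of 0.88 ± 0.35 did not pass (adjusted p = 0.2, edgeR).

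**Figure D2:**
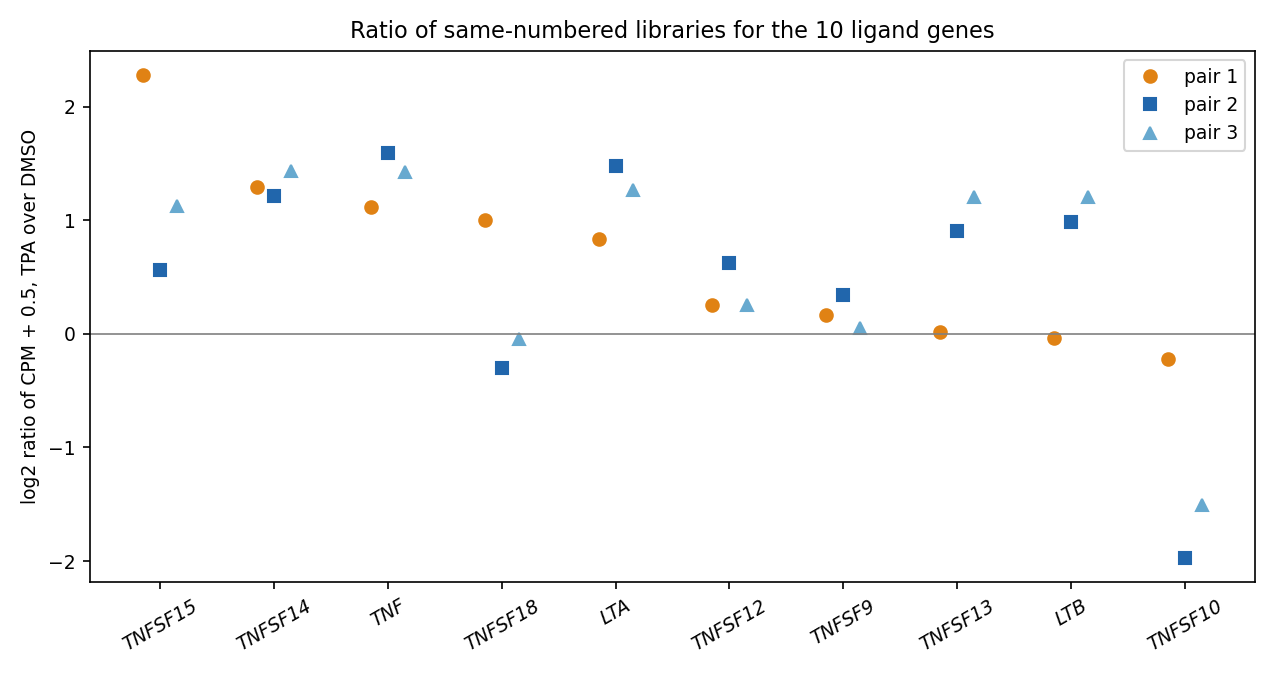
Log2 ratio of CPM + 0.5, TPA over DMSO, for the 10 ligand genes (x axis), 1 symbol for each pair of same-numbered libraries. TNF, LTA and TNFSF14 had positive ratios in all 3 pairs, while LTB, TNFSF13 and TNFSF10 lay between -0.22 and 0.02 in pair 1 and TNFSF18 was above 0 in pair 1 alone.

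Of the 9 tested ligand genes, 6 had a positive log2 ratio of CPM + 0.5 in all 3 pairs and 1 (TNFSF10) a negative one, against 22.6% and 29.6% of all tested genes. Of the 6, TNFSF13 was at 0.02 in pair 1 and TNFSF9 at 0.05 in pair 3, both close to 0, and TNF and LTA had to be higher by the way they entered the test. The CPM ranges of the groups did not overlap for 4 genes that were higher (TNF, LTA, TNFSF14 and TNFSF15) and 1 that was lower (TNFSF10), against 14.3% and 15.2% of all tested genes. For TNF and LTA this separation was set by the count filter, and TNFSF14 and TNFSF10 needed their higher group to enter the test. Neither this count nor that of the pair signs is therefore read against the shares of all genes. Without both libraries numbered 1, 7 ligand genes were higher and 1 lower, against 32.2% and 33.3% of all genes (65.5% in all), a fit of 2 close libraries against 2. Transcript GC content of the 10 genes ran from 38.3% (TNFSF18) to 63.8% (LTB). The block fit with an added offset for GC content, estimated per library, kept TNF, LTA, TNFSF14 and TNFSF15 as higher (adjusted p = 0.0169, 0.0123, 0.0143 and 0.0036, edgeR), and called 9.84% of all genes higher and 11.4% lower. Compared with the block alone this correction lowered the log2 fold changes of LTB (1.44 to 1.10) and TNFSF13 (0.83 to 0.44) and raised those of TNFSF15 (1.33 to 1.80) and TNFSF18 (0.43 to 1.06).

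**Figure D3:**
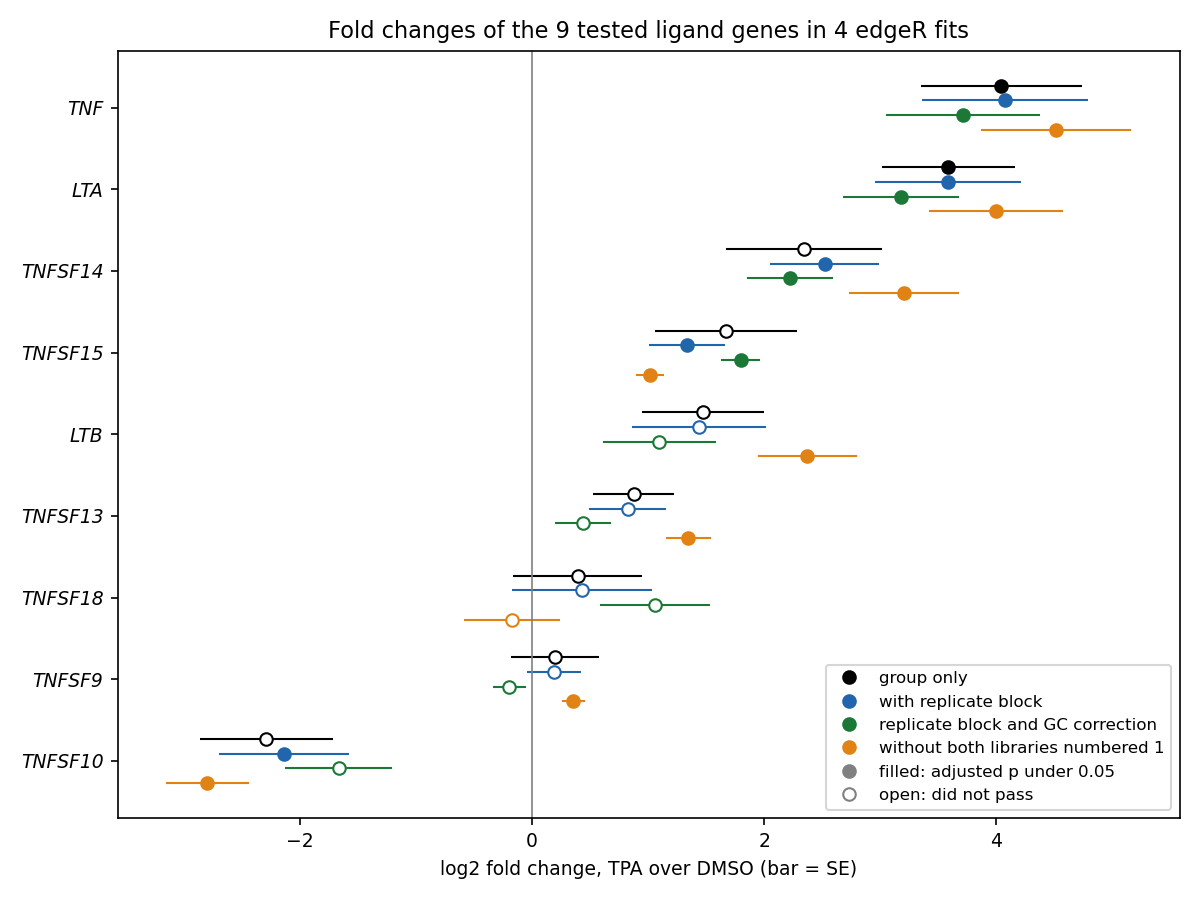
Log2 fold change, TPA over DMSO, of the 9 tested ligand genes (bar = SE) in 4 edgeR fits; filled points had an adjusted p under 0.05. TNF and LTA were filled in all 4, TNFSF14 and TNFSF15 in the 3 other than the fit with the group alone, and TNFSF18 in none.

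**Figure D4:**
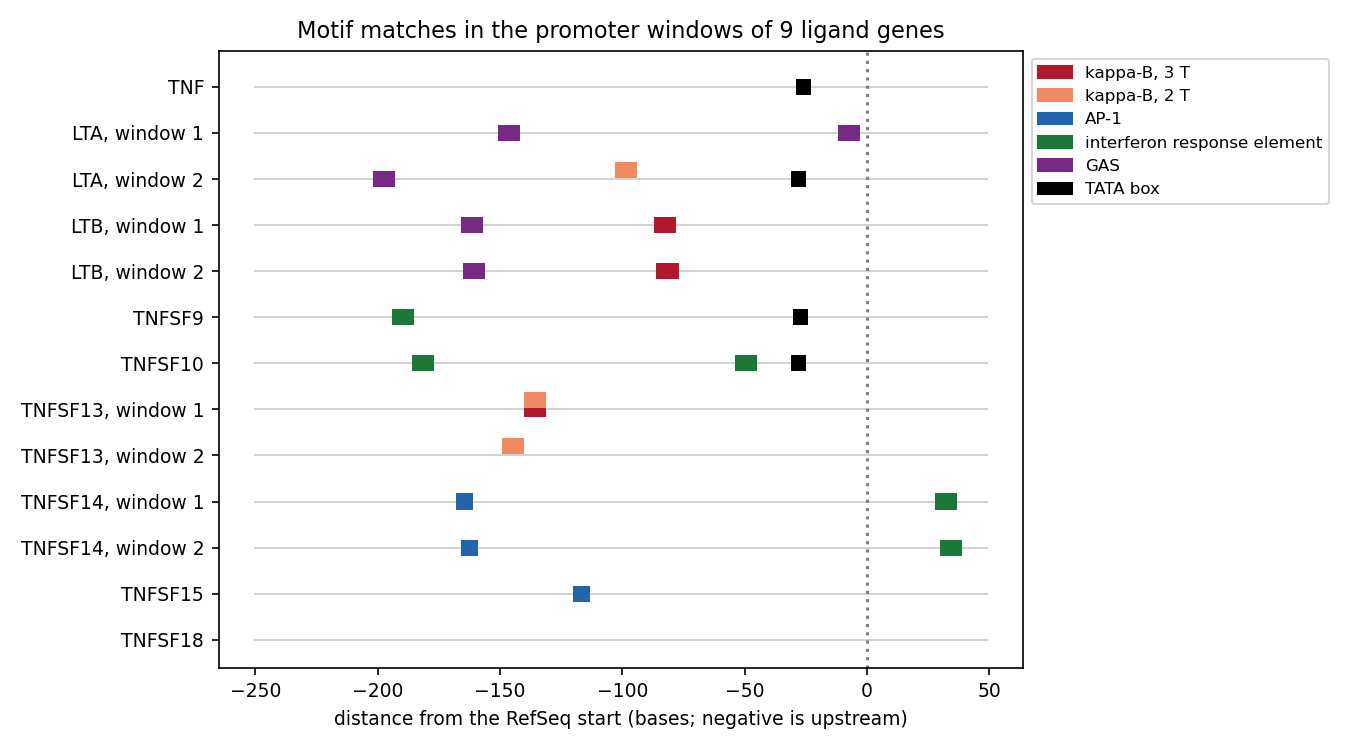
Positions of motif matches in the RefSeq promoter windows of 9 ligand genes (x axis: distance from the RefSeq start in bases, negative upstream; 1 line for each window, colours for the motifs; boxes span the match). TNFSF14 and TNFSF15 are the genes with an AP-1 match, TATA boxes of 4 genes lie 24 to 31 bases upstream, and the TNFSF15 window is that of an internal start.

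Levels were compared between genes per kilobase of merged exons (CPM per kilobase). In TPA, TNFSF9 was highest at 28.6 ± 10.3 CPM per kilobase (mean ± SD, n = 3), followed by TNFSF15 at 11.2 ± 10.2 and TNFSF13 at 1.89 ± 0.663. TNF (0.565 ± 0.119), LTB (0.546 ± 0.244), LTA (0.467 ± 0.183), TNFSF14 (0.302 ± 0.136) and TNFSF18 (0.292 ± 0.111) came next, and TNFSF12 (0.110 ± 0.0504) and TNFSF10 (0.0925 ± 0.0296) last. Neighbours in this order had overlapping ranges, except TNFSF15 against TNFSF13, TNFSF13 against TNF and TNFSF18 against TNFSF12. In DMSO the order again began with TNFSF9 (24.9 ± 8.59), TNFSF15 (3.50 ± 1.05) and TNFSF13 (1.03 ± 0.163), each apart from the next. TNFSF10 came next there (0.454 ± 0.261), with TNFSF18 (0.221 ± 0.121) and LTB (0.196 ± 0.0904) after it. TNFSF14 (0.0589 ± 0.0564), LTA (0.0365 ± 0.0170), TNF (0.0325 ± 0.0297) and TNFSF12 (0.0234 ± 0.0405) were lowest, with overlapping ranges among these 4 and between TNFSF10, TNFSF18 and LTB. TNF thus ranked 4 in TPA and 9 in DMSO, and TNFSF10 ranked 10 in TPA and 4 in DMSO. The places of TNFSF12 and TNFSF13 are uncertain, because of the exon bases they share with the readthrough gene.

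Of the summed level of the 10 genes per kilobase, TNFSF9 made up 39.3%, 79.4% and 75.1% in TPA libraries 1, 2 and 3, against 69.5%, 83.9% and 87.2% in DMSO. TNFSF15 made up 53.1%, 10.2% and 13.7% in TPA, against 21.5%, 9.24% and 7.48% in DMSO. TPA 1 was the library in which TNFSF15 exceeded TNFSF9. The other 8 genes together made up 7.57% to 11.2% in TPA and 5.31% to 8.93% in DMSO.

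**Figure D5:**
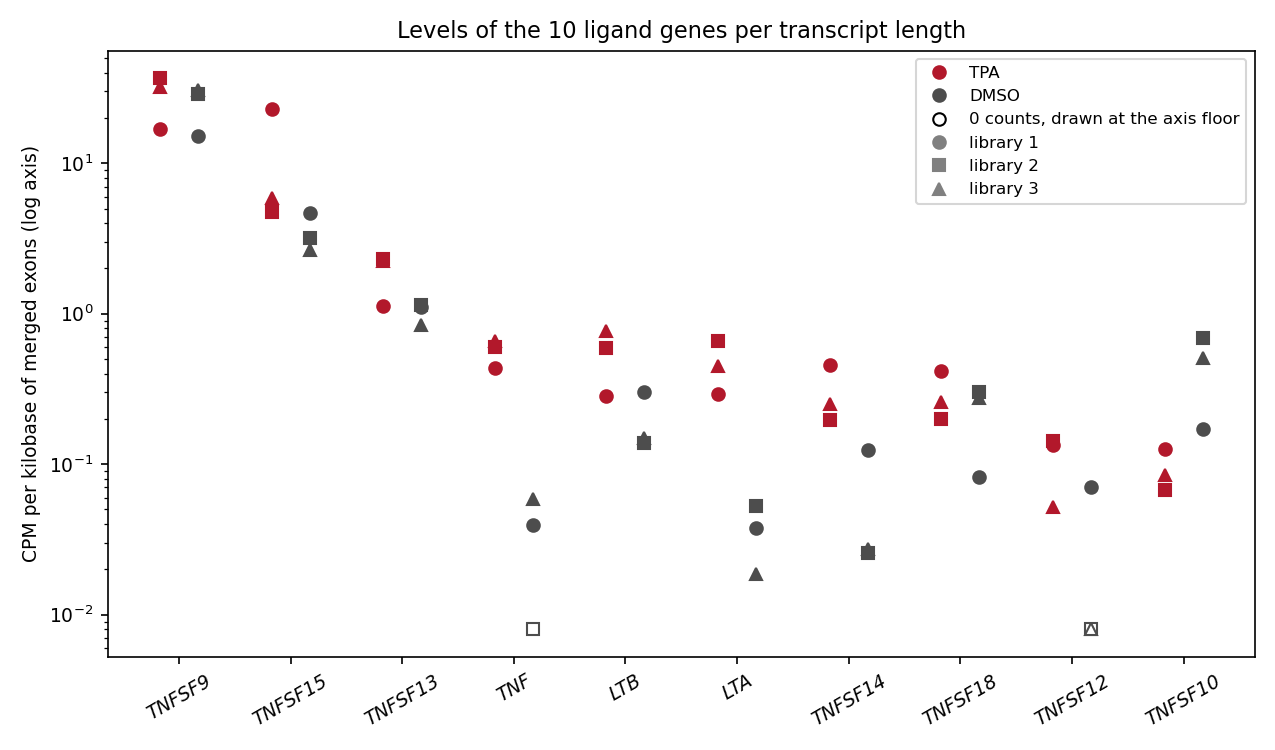
Level of the 10 ligand genes in CPM per kilobase of merged exons (log axis) in each library, TPA left of DMSO; symbols give the library number, and open symbols are 0 counts drawn at the axis floor. TNFSF9, TNFSF15 and TNFSF13 were highest in both groups, and TNF, LTA and TNFSF14 were separated between the groups at lower levels.

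The gene whose log2 CPM over the 6 libraries was most like that of LTA, the ligand gene with the lowest p, was KCTD21 (Pearson r = 0.999). KMT2D and GDPD5 (r = 0.997 each) and RAB2B (r = 0.996) were also among the closest. These genes were picked as the highest correlations among all genes compared, over only 6 libraries, so the choice itself made r high. LTA also had only 2, 3 and 1 counts in DMSO and had to differ between the groups to be tested. The likeness is therefore not read as shared regulation. The log2 fold changes of these 4 genes were small beside that of LTA, from 0.62 (RAB2B) to 0.81 (GDPD5). KCTD21 and GDPD5 did not pass with the group alone (adjusted p = 0.0889 and 0.0845, edgeR) and did with the block (0.0492 and 0.0486). KMT2D and RAB2B passed in neither fit.

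Of 8 other TNF superfamily ligand genes, 1 had enough counts to be tested. TNFSF4, which encodes the T cell costimulator OX40L, had 84, 42 and 37 counts in TPA against 30, 23 and 35 in DMSO, a log2 fold change of 0.997 ± 0.44 that did not pass (adjusted p = 0.243, edgeR, also not in DESeq2 or limma-voom). It passed with the GC correction, both with the block (adjusted p = 0.028, edgeR) and without it (0.0409), but not with the block alone (0.137). CD70, the ligand of CD27, had 11, 12 and 5 counts in TPA and 5, 9 and 7 in DMSO, and TNFSF8, the ligand of CD30, had 13, 2 and 3 in TPA and 6, 1 and 1 in DMSO. TNFSF13B, the B cell factor BAFF, had 3, 5 and 1 counts in TPA and 2, 0 and 4 in DMSO. The groups overlapped for these 3 genes. FASLG had 2 counts in each group, and CD40LG, TNFSF11 and EDA were listed at 0 in every library.

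Of 17 receptor genes listed for the ligands, 11 were tested. Among them TNFRSF13C is the receptor of TNFSF13B and not of any of the 10 ligands, and it did not pass (log2 fold change -0.59 ± 0.60; adjusted p = 0.59, edgeR). With the group alone 0 were higher and 0 lower in edgeR, with 3 at p under 0.05 before adjustment, while DESeq2 called 3 higher and limma-voom 0. Over all genes edgeR called 0.861% higher, DESeq2 7.8% and limma-voom 1.13%, and 22.1% had an unadjusted p under 0.05 in either direction (edgeR). The median log2 fold change of the tested receptors was 0.42, beside -0.11 over all genes. With the block 3 were higher, in a fit that called 4.58% of all genes higher. These were TNFRSF10A and TNFRSF10B, the death receptors of TNFSF10, and TNFRSF12A, the receptor of TNFSF12. TNFRSF10B had 273, 309.6 and 298 CPM in TPA libraries 1, 2 and 3, against 172, 132 and 138 CPM in DMSO, a log2 fold change of 0.99 ± 0.20 (adjusted p = 0.0617, edgeR, and 0.0278 with the block). TNFRSF10A had 125, 169 and 158 CPM in TPA, against 90.8, 71.1 and 69.5 CPM in DMSO (0.96 ± 0.23; adjusted p = 0.0722, and 0.0383 with the block). TNFRSF12A had 259, 411 and 368 CPM in TPA, against 202, 138 and 139 CPM in DMSO (1.12 ± 0.26; adjusted p = 0.0738, and 0.0336 with the block). In all 3 genes every TPA library lay above every DMSO library, so the fold changes of TNFSF10 and its death receptors had opposite signs.

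Per kilobase, the receptor of TNF and LTA present in these cells was TNFRSF1A, at 12.9 to 24.6 CPM per kilobase in TPA and 12.6 to 17.9 in DMSO, while TNFRSF1B had 2 counts in TPA and 0 in DMSO. LTBR, the receptor of LTB and TNFSF14, lay at 28.1 to 46.8 CPM per kilobase in TPA and 26.7 to 31.4 in DMSO, and TNFRSF25, the receptor of TNFSF15, at 2.29 to 3.86 in TPA and 2.30 to 2.78 in DMSO. The groups overlapped for these 3 receptors, and none of them passed (adjusted p = 0.535, 0.359 and 0.476, edgeR). TNFRSF9, the receptor of the most abundant ligand, was rare, at 21, 9 and 26 counts in TPA and 15, 7 and 7 in DMSO. TNFRSF18 had 3, 0 and 0 counts in TPA and 4, 0 and 0 in DMSO. Of the receptors of TNFSF13, TNFRSF17 had 39, 50 and 40 counts in TPA and 37, 40 and 39 in DMSO. It did not pass (log2 fold change 0.25 ± 0.29; adjusted p = 0.646, edgeR), and TNFRSF13B was listed at 0. TNFRSF6B, a decoy receptor of TNFSF14 and TNFSF15, was also listed at 0, but 100% of its exon bases lie within the readthrough gene RTEL1-TNFRSF6B, which had 2106 counts over the 6 libraries, so its level is not known from these counts.

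Among 16 genes of ligand release and mRNA decay, 1 was higher, 0 were lower and 15 did not pass (edgeR; at an unadjusted p under 0.05 4 and 0; DESeq2 4 and 0, limma-voom 1 and 0), with a median log2 fold change of 0.08. ZC3H12A, an RNase that degrades cytokine mRNAs, had 41.6, 45.9 and 42.9 CPM in TPA, against 17.1, 15.9 and 14.9 CPM in DMSO (1.45 ± 0.20; adjusted p = 0.0342, edgeR). The 3 libraries of each group were close and the groups lay far apart. With the block 3 were higher and 1 lower, against 4.58% and 6.52% of all genes. Among 23 tested genes of the TNF receptor signalling complexes 1 was higher, 0 were lower and 22 did not pass (at an unadjusted p under 0.05 11 and 2; DESeq2 10 and 1, limma-voom 3 and 1), with a median of 0.67. TNIP1, which restrains NF-kB together with the deubiquitinase A20, had 611, 759 and 738 CPM in TPA, against 238, 176 and 182 CPM in DMSO (1.82 ± 0.21; adjusted p = 0.025, edgeR). With the block 8 members of that list were higher and 1 was lower, against the same shares of all genes. With the group alone edgeR called 0.861% of all genes higher and 0.394% lower, DESeq2 7.8% and 4.19%, and limma-voom 1.13% and 0.596%. At an unadjusted p under 0.05 it was 22.1% of all genes in either direction (edgeR).

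In a list of interferon-stimulated genes, described here because TNFSF10 is known to be induced by interferon, 3 genes fell. TNFSF10 itself is not on the list and did not pass in this fit. Of 20 tested, 0 were higher, 3 were lower, 17 did not pass and 13 had a negative fold change (edgeR; at an unadjusted p under 0.05 2 and 8; DESeq2 2 and 7, limma-voom 0 and 2), with a median log2 fold change of -0.76 beside -0.11 over all genes. Negative values were the majority over all genes too, at 12223 of 21825. EdgeR called 0.861% of all genes higher and 0.394% lower, DESeq2 7.8% and 4.19%, and limma-voom 1.13% and 0.596%. The 3 genes of the list that fell were DDX60 (-2.78 ± 0.38, adjusted p = 0.031), IFIT3 (-2.86 ± 0.48, 0.0471) and RSAD2 (-2.77 ± 0.48, 0.0487). IFIT3 had 4.21, 2.32 and 4.21 CPM in TPA, against 11.5, 36.9 and 29.7 CPM in DMSO. As for TNFSF10, DMSO 1 was well below DMSO 2 and DMSO 3, and whether these genes and TNFSF10 move for a shared reason was not tested. With the block 2 were higher and 9 lower, against 4.58% and 6.52% of all genes. The calls in these 5 lists, 2 higher and 3 lower in all, were 0 and 0 without TPA 2, TPA 3, DMSO 2 or DMSO 3, 3 and 5 without DMSO 1, and 30 and 21 without TPA 1, the fit that called 24.6% of all genes higher and 27.8% lower.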

How the data were processed

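Total RNA of KYSE150 cells was extracted with TRIzol and sequenced by Illumina methods, per the labels. The authors deposited raw read counts per gene symbol, not normalized. The tools named are HISAT2 2.1.0 and HTSeq 0.12.4, and the builds hg38 and GRCh38, per the submitters' processing notes. Annotation and strand setting were not given in the sources used here, so reads of overlapping or antisense genes are not separable. The table heads its DMSO columns control, and these were assigned by number.

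Counts were tested with edgeR 4.0.16 (R 4.3.3; TMM factors, filterByExpr with a minimum count of 10 in 3 libraries, quasi-likelihood F-test with the group as the only term, Benjamini-Hochberg adjustment, threshold 0.05). SE was taken as the fold change over the root of the F statistic. These steps were run on simulated counts. The simulated libraries were drawn independently, so the run does not cover deviations shared by libraries that carry the same number. Pair ratios used a pseudocount of 0.5 CPM. Lengths, positions and GC content came from GENCODE 29. Of 60591 symbols, 4073 matched no gene or more than 1.

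The numbers 1 to 3 in the titles were taken to pair libraries, because the TPA and DMSO libraries of a number deviated together from their group means (correlation 0.55, 0.34 and 0.37). The crossed pairs of numbers 2 and 3 reached 0.36 and 0.38, so these numbers are not told apart. The values thus show only the split of number 1 from 2 and 3, although the block used all 3 numbers.

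Alternatives were RLE, upper-quartile and library-size scaling, no filter, a filter at 1 CPM, DESeq2 1.42.0, limma-voom (limma 3.58.1), the replicate block, a GC correction with and without it (natural spline, 5 degrees of freedom), each library left out, both libraries numbered 1 left out, and a threshold of 0.01. The rule for named genes took the 10 ligands, other ligands with at least 10 counts, the genes of each list that passed or else the 3 with the lowest p, and the 5 genes most like the ligand with the lowest p, of which 1 is not reported here; other receptors and FASLG were named after their values were seen. Members and lists were chosen with earlier results of these data known.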

Additional observations from a re-analysis of the deposited data

How the results depend on the processing

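Among ligand genes 2 were higher and 0 lower. The counts were 1 higher with library-size scaling, 0 with a filter at 1 CPM in every library of a group (which leaves 3 ligand genes), 4 with DESeq2, with the replicate block and with the block and the GC correction, 7 without both libraries numbered 1 and 0 at a threshold of 0.01. Lower calls were 1 with DESeq2, with the block and without both libraries numbered 1. Leaving out 1 library gave 0 to 6 higher and 0 to 1 lower, with both maxima without TPA 1. Over all genes, 188 were higher and 86 lower, and the counts were 429 and 202 without a filter, 1702 and 915 with DESeq2, 1000 and 1423 with the block, 2068 and 2403 with block and GC correction, 749 and 717 with the GC correction alone, 7216 and 7475 without both libraries numbered 1, and 0 and 0 at a threshold of 0.01. Library-size scaling gave 219 lower and limma-voom 130 lower. Leaving out 1 library gave 0 to 5577 higher and 0 to 6297 lower, most without TPA 1 and fewer than the full set without any other. In the 5 partner lists, 2 higher and 3 lower became 5 and 7 without a filter, 19 and 8 with DESeq2, 16 and 11 with the block, 23 and 18 with block and GC correction, 10 and 9 with the GC correction alone, 35 and 26 without both libraries numbered 1, and 0 and 0 at a threshold of 0.01. Limma-voom gave 4 higher. Leaving out 1 library gave 0 to 30 higher and 0 to 21 lower. Causes of these moves were not tested.

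Signs turned for TNFSF9 (0.20; -0.072 with library-size scaling, -0.195 with block and GC correction, -0.23 with the GC correction alone, and -0.0585 to 0.58 with 1 library left out, negative without DMSO 1 or TPA 2) and for TNFSF18 (-0.175 without both libraries numbered 1). The other tested ligand genes kept their direction in every alternative that tested them. The median over all genes was -0.36 with library-size scaling, against -0.11. Levels per kilobase moved by less than 1 SD with library size in place of the scaled size. TNF, LTA, LTB, TNFSF10, TNFSF12, TNFSF14 and TNFSF18 had under 100 counts in every library, so counting error limits them.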
